A study of Mus musculus with 12 samples.

Results

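The interferon-linked TRIM genes examined here were 10 mouse genes, Trim30a, Trim30d, Trim34a, Trim12a, Trim12c, Trim14, Trim21, Trim25, Trim26 and Trim56. They were chosen by gene symbol from the 51826 genes of the deposited tables, each symbol matched 1 identifier, and all 10 passed the filter on low counts that left 16676 genes for testing. The tables also held 62 other TRIM family genes, of which 42 were tested.

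RNA was sequenced from MC38 cells, a mouse colorectal carcinoma line, in 4 groups of 3 libraries: Smarcd1 knockout cells with interferon (IFN), untreated Smarcd1 knockout cells, wild-type cells with IFN, and untreated wild-type cells. The knockout had been made with a guide RNA against Smarcd1, the gene of a subunit that SWI/SNF (BAF) chromatin remodelling complexes carry. The sources used here do not give the type, dose and duration of IFN, the number of knockout clones, or whether the libraries of a group came from separate cultures, so the p values measure only the spread between these samples. Groups were taken from the sample titles. The other labels of 6 samples exchanged untreated knockout cells with wild-type cells given IFN. Log2 fold changes of Smarcd1 and of an IFN check gene under both labellings are given in the section on processing.

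TRIM proteins share a RING, B-box and coiled-coil arrangement, and most members act as E3 ubiquitin ligases. Many are interferon-stimulated genes: type I interferon receptors activate a transcription factor complex that holds STAT2 and IRF9 and binds interferon-stimulated response elements (ISREs) in their promoters, while interferon gamma acts largely through gamma-activated sites. Their products restrict viruses directly, as TRIM5 does in primates by binding retroviral capsids, or tune the sensing pathways that lead to interferon production, as TRIM25 does with the RNA sensor RIG-I.

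Of the 10 genes, 5 lie in a cluster on chromosome 7, with other TRIM genes between some of them. In GENCODE M21 on GRCm38 this cluster spanned chr7:104244457-104507849, a length of 263.4 kb, and held Trim34a (chr7:104244457-104262234), Trim12a (chr7:104299894-104315466), Trim12c (chr7:104338754-104353362), Trim30a (chr7:104409025-104465193) and Trim30d (chr7:104470014-104507849). Trim21 (chr7:102557921-102565486) lay 1.68 Mb away on the same chromosome. Trim14 (chr4:46493781-46536141), Trim25 (chr11:88999376-89020293), Trim26 (chr17:36837134-36859398) and Trim56 (chr5:137105644-137116209) lay elsewhere. The coding sequences of Trim30a and Trim30d were 90.2% identical over 1488 aligned bases, and those of Trim12a and Trim12c 96.4% over the 891 coding bases of Trim12a. Runs of 150 bases, the read length, that also occurred in another gene made up 3.24% of those of Trim30a and 3.23% of those of Trim30d (each shared with the other), 8.06% in Trim34a (with Trim34b), 0.38% in Trim12a and 2.54% in Trim12c (both with Trim5), and 0.0% in the other 5 genes. Genes on the opposite strand overlapped 38.0% of the exonic bases of Trim14 and 23.5% of those of Trim34a, and 2.7% of those of Trim12c were overlapped on the same strand. The sources used here do not give the strand setting of the counting, so reads from such stretches cannot be told apart.

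The promoter windows are shown because the genes differed in whether they held the ISRE core. RefSeq's promoter table (GRCm38.p6, 250 bases before to 50 after each start) held 9 of the 10 genes, Trim14 being the other. The core, GAAA followed after any 2 bases by GAAA and searched on both strands, was found in 7 of these 9 genes (77.78%), against 2 of 44 other TRIM genes (4.55%). Counted by single promoter entry rather than by gene, 1131 of 32851 in the table held it (3.44%). The 10 genes were chosen as interferon-linked, so a larger share than in other TRIM genes is not an independent result. The core was not found in the windows of Trim25 and Trim56. The gamma-activated site letters TTCNNNGAA were found in 0 of the 9 genes, in 6 of the 44 other TRIM genes (13.64%) and in 8.3% of all promoters. A match is a description of letters and does not show that a factor binds there. Each stretch of 30 bases below is written 5′ to 3′ on the gene's own strand, with the matching bases in capitals; a core on the opposite strand appears as TTTC followed after 2 bases by TTTC.
Trim21: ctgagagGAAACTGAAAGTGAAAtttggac
Trim34a: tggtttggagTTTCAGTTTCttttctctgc
Trim12a: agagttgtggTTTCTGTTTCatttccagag
Trim12c: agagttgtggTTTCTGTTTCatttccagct
Trim30a: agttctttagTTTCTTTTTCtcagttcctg
Trim30a, second entry: ttgtttttagTTTCTTTTTCtcagttcctg
Trim30d: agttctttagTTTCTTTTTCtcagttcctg
Trim26: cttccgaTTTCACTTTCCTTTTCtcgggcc

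The stretch of Trim21 (chr7:102565447-102565476, minus strand) held 2 overlapping matches, at bases 14 to 29 after the start. That of Trim34a (chr7:104244457-104244486, plus strand) and that of Trim12a (chr7:104315466-104315495, minus strand) each held 1 match at bases 11 to 20 after the start. In Trim12c (chr7:104353359-104353388, minus strand) the match ended 20 bases before the start. The Trim30a (chr7:104465210-104465239, minus strand) and Trim30d (chr7:104507871-104507900, minus strand) stretches were letter for letter the same, with the match ending 27 bases before the start in Trim30a and 32 bases before it in Trim30d. The second RefSeq start of Trim30a (chr7:104446104-104446133, minus strand) had its match at bases 3 to 12 after the start. Trim26 (chr17:36836979-36837008, plus strand) had 2 overlapping matches, farther off, ending 145 bases before the start.

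Libraries held 31752685 to 45721356 counts. Replicate 2 of the untreated wild-type cells stood apart on the third principal component (8.63% of the variance), at a score of 50.92, and its mitochondrial share of counts was 4.823%, while its fellow replicates had 1.607% and 1.62%. Replicate 1 of the untreated knockout cells lay at -28.75 on that component, and results were also computed without these 2 libraries. Smarcd1 had 37.8 to 38.5 TPM (the deposited level per transcript length and library size) in knockout cells with IFN, 31.5 to 36.5 in untreated knockout cells, 55.8 to 75.9 in wild-type cells with IFN and 53.5 to 68.1 in untreated wild-type cells, so each knockout library lay below each wild-type library. Colon carcinoma markers were scarce: the 8 on the list summed to 0.648 to 1.13 TPM in knockout cells with IFN, 2.59 to 3.71 in untreated knockout cells, 1.11 to 1.19 in wild-type cells with IFN and 4.28 to 4.74 in untreated wild-type cells, and Epcam, Krt20 and Cdx2 were at 0 in all 12 libraries. Of 6 leukocyte markers only Cd68 averaged 1 TPM or more in any group, with Cd3e and Adgre1 at 0, and the list summed to 8.98 to 10.7, 9.63 to 12.6, 8.49 to 16.3 and 13.1 to 17.5 TPM in the same order of groups. The 3 endothelial markers summed to at most 4.16 TPM. The 4 fibroblast markers summed to 130 to 133, 197 to 199, 239 to 257 and 244 to 254 TPM in that order, but did not move together: Dcn averaged 62.6, 34.9, 182 and 101 TPM and Col1a2 39.5, 126, 35.1 and 106 TPM in that order. The part of these markers in the results below was not tested.

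**Figure D1:**
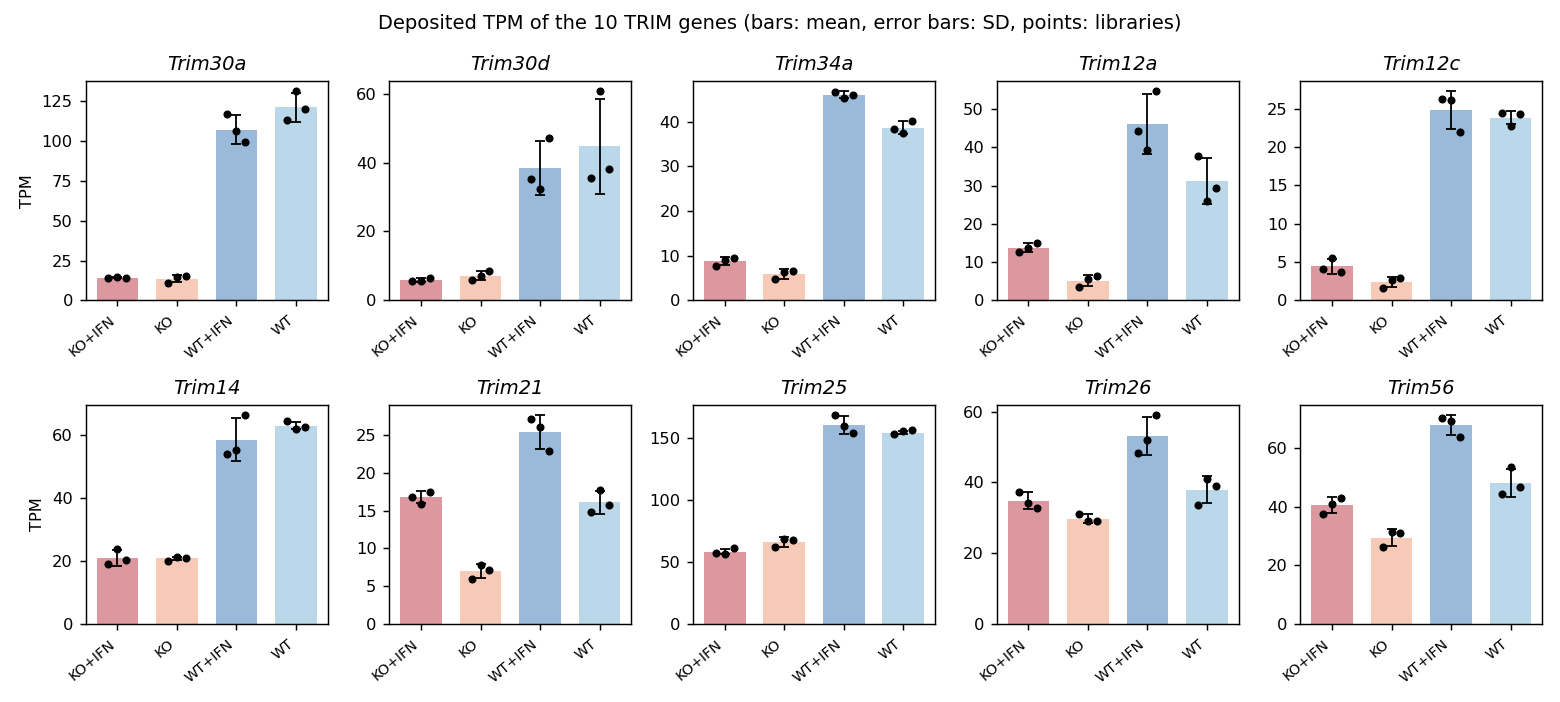
Deposited TPM (y axis, linear, starting at 0) of each of the 10 TRIM genes in the 4 groups (x axis); points are libraries, bars the mean of 3 and error bars the SD. In every panel both knockout groups stand below their wild-type counterparts, and Trim21 has the same level in knockout cells with IFN (16.8 TPM) as in untreated wild-type cells (16.1 TPM), apart by less than the SD.

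The first comparison asked how untreated knockout cells differed from untreated wild-type cells. All 10 TRIM genes fell, the 5 of the chromosome 7 cluster the most: their median log2 fold change was -2.68, against -1.13 for the 5 elsewhere, -2.05 for all 10 and -0.00 for all genes tested. Genes called lower made up 10.6% of all genes tested and genes called higher 6.43%. In all 10 the libraries of the groups did not overlap, which held in the lower direction for 18.2% of all genes. Rises and falls named here had an adjusted p under 0.05 in edgeR's quasi-likelihood test over all genes tested. In bulk RNA, fewer expressing cells and less RNA per cell cannot be told apart.

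Within the cluster, Trim30a, whose product restrains NF-kB signalling downstream of Toll-like receptors through TAB2 and TAB3 in mice, was the most abundant gene on average in each group. It had 10.9, 14.5 and 15.6 TPM in untreated knockout cells, against 113, 131 and 120 TPM in untreated wild-type cells. The knockout level was thus 10.7% of the wild-type one on the count scale (log2 fold change -3.23 ± 0.14 SE, adjusted p = 5.07e-09). Its neighbour Trim30d, a close copy, had 5.96, 7.03 and 8.62 TPM in untreated knockout cells, against 35.6, 60.6 and 38.0 TPM in untreated wild-type cells, where replicate 2 was the high library. Trim30d fell by 2.68 ± 0.17 on the log2 scale (adjusted p = 1.63e-07).

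Trim12a and Trim12c are rodent relatives of primate TRIM5. Trim12c had 1.64, 2.68 and 2.87 TPM in untreated knockout cells, against 24.4, 22.8 and 24.3 TPM in untreated wild-type cells. This was the strongest decrease of the 10 genes, to 9.93% of the wild-type level (log2 fold change -3.33 ± 0.19, adjusted p = 8.39e-08), within its SE of the value for Trim30a. Trim12a had 3.55, 5.73 and 6.27 TPM in untreated knockout cells, against 37.8, 26.1 and 29.4 TPM in untreated wild-type cells, a fall to 17.7% (log2 fold change -2.50 ± 0.21, adjusted p = 4.19e-06). Trim34a, which belongs to the same TRIM5-related group, had 4.7, 6.43 and 6.62 TPM in untreated knockout cells, against 38.4, 37.5 and 40.2 TPM in untreated wild-type cells. It fell by 2.66 ± 0.11 on the log2 scale (adjusted p = 3.78e-09).

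Outside the cluster the largest decreases were those of Trim14 and Trim25, both tied to RNA sensing, with Trim21 (-1.13 ± 0.12) close to Trim25. Trim25, an E3 ligase that acts with RIG-I and can attach ISG15, was the most abundant of the 10 and had 61.7, 68.8 and 67.6 TPM in untreated knockout cells, against 153, 155 and 156 TPM in untreated wild-type cells. The level was 41.4% of wild type (log2 fold change -1.27 ± 0.07, adjusted p = 2.95e-08). Trim14, which lacks a RING domain and works as an adaptor with the mitochondrial protein MAVS, had 20.1, 21.2 and 21.1 TPM in untreated knockout cells, against 64.2, 61.8 and 62.6 TPM in untreated wild-type cells. Trim14 fell to 33.0% of the wild-type level (log2 fold change -1.60 ± 0.12, adjusted p = 1.59e-06).

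The remaining genes were Trim21, Trim56 and Trim26. Trim21, a cytosolic antibody receptor that sends antibody-coated virus to the proteasome, had 6.01, 7.87 and 7.19 TPM in untreated knockout cells, against 14.8, 17.7 and 15.7 TPM in untreated wild-type cells (log2 fold change -1.13 ± 0.12, adjusted p = 2.30e-05). Trim56, an E3 ligase that acts in the cGAS-STING and TLR3 pathways, had 26.2, 31.4 and 30.9 TPM in untreated knockout cells, against 44.2, 53.4 and 46.6 TPM in untreated wild-type cells (log2 fold change -0.63 ± 0.07, adjusted p = 2.72e-05). The smallest change was in Trim26, an E3 ligase reported to act on IRF3 in the nucleus. Trim26 had 31.1, 29.1 and 29.1 TPM in untreated knockout cells, against 33.7, 41.1 and 39.0 TPM in untreated wild-type cells (log2 fold change -0.42 ± 0.07, adjusted p = 0.00191). The call for Trim26 was lost when limma was run on log2(TPM + 1) or log2(TPM + 0.1), with adjusted p of 0.0526 and 0.0521.

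**Figure D2:**
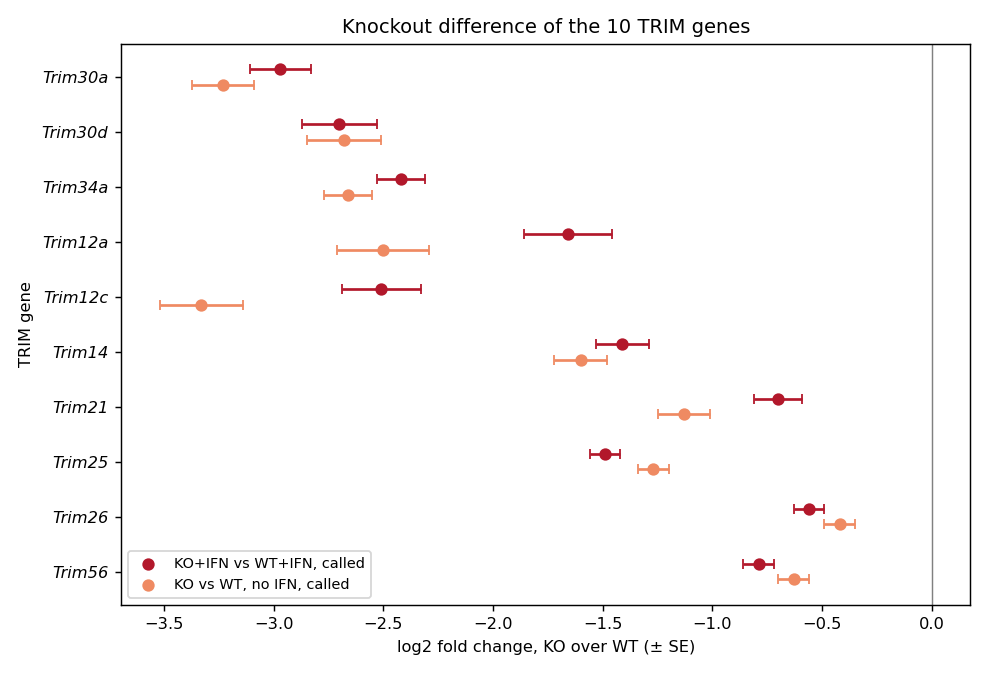
Log2 fold change of knockout over wild-type cells (x axis) for each TRIM gene (y axis), with IFN (dark, upper point) and without (light, lower point); bars are the SE and filled points passed the test. All 20 points lie below 0, from -3.33 for Trim12c without IFN to -0.42 for Trim26 without IFN.

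The same question was asked of cells given IFN. All 10 genes were again lower in knockout cells, with a median log2 fold change of -1.57 (-2.51 in the cluster and -0.79 elsewhere), and again no library of any of the 10 overlapped between groups. Of all genes tested, 10.6% were called lower and 5.11% higher, and 21.7% had libraries that did not overlap in the lower direction. These libraries are other ones than those of the untreated comparison, although the fit shares 1 estimate of the spread.

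In the cluster, Trim30a had 14.1, 14.4 and 14 TPM in knockout cells with IFN, against 117, 106 and 99.3 TPM in wild-type cells with IFN (log2 fold change -2.97 ± 0.14, adjusted p = 2.96e-08). Trim30d had 5.65, 5.55 and 6.62 TPM in knockout cells with IFN, against 35.3, 32.4 and 47.2 TPM in wild-type cells with IFN (-2.70 ± 0.17, adjusted p = 3.08e-07). For both genes the knockout level with IFN stood at 12.7% and 15.4% of the wild-type level with IFN, close to the shares without it. Trim34a had 7.73, 9.10 and 9.43 TPM in knockout cells with IFN, against 46.7, 45.4 and 46.1 TPM in wild-type cells with IFN (-2.42 ± 0.11, adjusted p = 2.46e-08). Trim12c had 4.16, 5.48 and 3.67 TPM in knockout cells with IFN, against 26.3, 26.1 and 22.0 TPM in wild-type cells with IFN (-2.51 ± 0.18, adjusted p = 1.36e-06). Trim12a was the cluster member that differed least, at 31.7% of the wild-type level with IFN. It had 12.6, 13.7 and 15 TPM in knockout cells with IFN, against 44.3, 39.3 and 54.6 TPM in wild-type cells with IFN (-1.66 ± 0.20, adjusted p = 0.00012).

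Elsewhere, Trim25 had 57.6, 56.5 and 60.9 TPM in knockout cells with IFN, against 168, 159 and 154 TPM in wild-type cells with IFN (log2 fold change -1.49 ± 0.07, adjusted p = 2.31e-08). Trim14 had 18.9, 23.7 and 20.4 TPM in knockout cells with IFN, against 53.9, 55.2 and 66.2 TPM in wild-type cells with IFN (-1.41 ± 0.12, adjusted p = 6.76e-06). Each knockout library of these RNA sensing genes lay below each wild-type library. Trim56 had 37.6, 40.8 and 43.0 TPM in knockout cells with IFN, against 70.3, 69.2 and 63.9 TPM in wild-type cells with IFN (-0.79 ± 0.07, adjusted p = 4.27e-06). Trim21 had 16.8, 15.9 and 17.5 TPM in knockout cells with IFN, against 27.1, 26.1 and 22.9 TPM in wild-type cells with IFN (-0.70 ± 0.11, adjusted p = 0.00108). Trim26 was again the least changed, with 37.4, 34.2 and 32.7 TPM in knockout cells with IFN, against 48.2, 51.9 and 59.0 TPM in wild-type cells with IFN (-0.56 ± 0.07, adjusted p = 0.000217).

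IFN in knockout cells was examined next. Here 6 of the 10 genes rose, Trim12a, Trim21, Trim12c, Trim34a, Trim56 and Trim26, 0 fell, and the median log2 fold change over the 10 was 0.31, against -0.01 for all genes. Of all genes tested, 5.47% were called higher and 7.28% lower. Trim12a rose most, by 1.45 ± 0.21 on the log2 scale (adjusted p = 0.000571), to a mean of 13.8 ± 1.22 TPM in knockout cells with IFN, against 5.19 ± 1.44 TPM in untreated knockout cells (SD, n = 3 each). Trim21 rose by 1.13 ± 0.12 (adjusted p = 3.50e-05), to 16.8 ± 0.793 TPM against 7.03 ± 0.941 TPM in untreated knockout cells. The levels with IFN were 273% of the untreated knockout level for Trim12a and 219% for Trim21. Smaller rises were those of Trim12c (0.92 ± 0.18, adjusted p = 0.00554), Trim34a (0.54 ± 0.11, adjusted p = 0.00485) and Trim56 (0.34 ± 0.07, adjusted p = 0.00434). The rise of Trim26 (0.28 ± 0.07, adjusted p = 0.0253) was lost in 10 of 21 alternatives, among them the leaving out of any knockout library with IFN or of replicate 2 or 3 of the untreated knockout cells (adjusted p 0.0554 to 0.12).

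Trim30a, Trim30d, Trim14 and Trim25 did not pass the test for IFN in knockout cells. Their log2 differences were 0.07 ± 0.13 (Trim30a, adjusted p = 0.791), -0.23 ± 0.16 (Trim30d, adjusted p = 0.416), 0.14 ± 0.12 (Trim14, adjusted p = 0.518) and -0.14 ± 0.06 (Trim25, adjusted p = 0.206). Without replicate 1 of the untreated knockout cells and replicate 2 of the untreated wild-type cells, an alternative chosen after seeing the data, Trim30d (-0.36, adjusted p = 0.0461) and Trim25 (-0.17, adjusted p = 0.0351) were called lower with IFN. The same libraries responded to the treatment in other genes: Gbp2, a guanylate-binding protein gene used as a check of the IFN label, rose by 6.77 ± 0.13 in knockout cells (adjusted p = 5.22e-12), with 552 to 582 TPM in knockout cells with IFN and 4.10 to 5.97 TPM in untreated knockout cells.

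In wild-type cells IFN raised 3 of the 10 genes, Trim21, Trim56 and Trim26, and 0 fell, with a median log2 fold change of 0.20. Of all genes tested, 4.66% were called higher and 4.72% lower. Trim21 averaged 25.4 ± 2.21 TPM in wild-type cells with IFN and 16.1 ± 1.51 TPM in untreated wild-type cells (0.69 ± 0.11, adjusted p = 0.00222). Trim56 averaged 67.8 ± 3.43 TPM with IFN and 48.1 ± 4.80 TPM untreated (0.50 ± 0.07, adjusted p = 0.000428). Trim26 averaged 53.1 ± 5.48 TPM with IFN and 37.9 ± 3.82 TPM untreated (0.42 ± 0.07, adjusted p = 0.00354). Each of the 3 genes that rose lies outside the cluster.

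None of the 5 cluster genes passed the test for IFN in wild-type cells. Trim12a (0.60 ± 0.20, adjusted p = 0.0809) and Trim34a (0.31 ± 0.10, adjusted p = 0.0819) came nearest. Both passed with DESeq2's Wald test (adjusted p 0.0315 for Trim12a and 0.0235 for Trim34a), which called 5 of the 10 genes, and both passed when replicate 1 of the untreated knockout cells was left out of the shared fit (adjusted p 0.0422 and 0.0255). Trim30a (-0.19 ± 0.13, adjusted p = 0.397), Trim30d (-0.21 ± 0.15, adjusted p = 0.455), Trim12c (0.09 ± 0.17, adjusted p = 0.802), Trim14 (-0.05 ± 0.12, adjusted p = 0.841) and Trim25 (0.08 ± 0.06, adjusted p = 0.48) lay within 2 SE of 0. Gbp2 rose by 2.87 ± 0.11 in the same wild-type libraries (adjusted p = 1.18e-08), while Ifit3, another check of the IFN label, did not pass there (0.21 ± 0.14, adjusted p = 0.407).

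**Figure D3:**
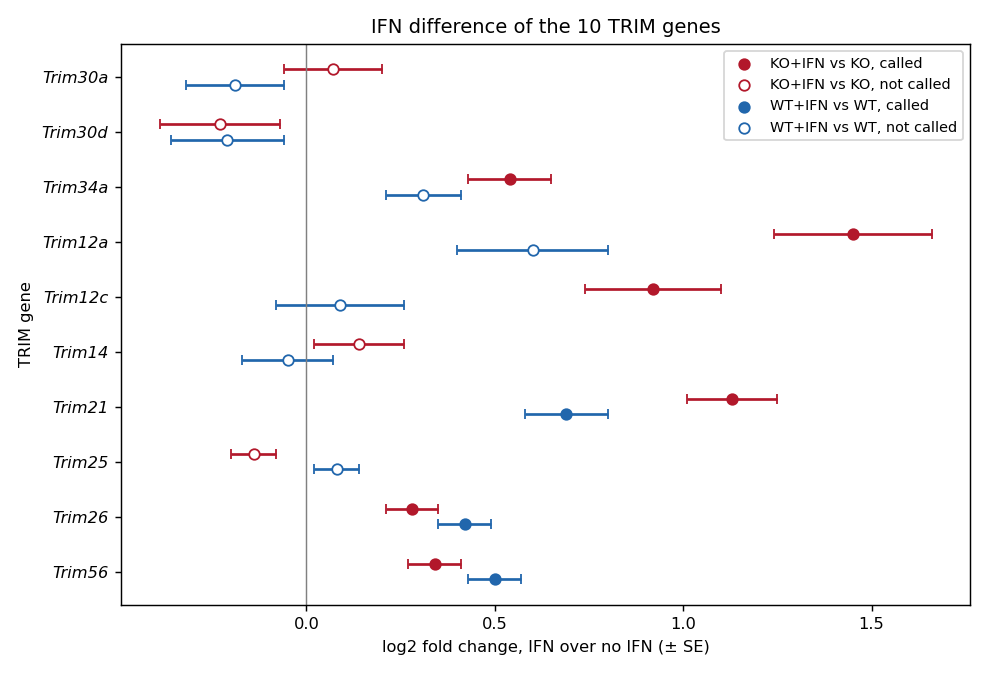
Log2 fold change of cells with IFN over untreated cells (x axis) for each TRIM gene (y axis), in knockout (red, upper point) and wild-type cells (blue, lower point); bars are the SE, filled points passed the test and open points did not. Trim12a (1.45) and Trim21 (1.13) in knockout cells lie farthest to the right, and Trim30a, Trim30d, Trim14 and Trim25 lie near 0 in both.

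Whether the IFN difference itself depended on the genotype was tested as an interaction, the log2 difference with IFN in knockout cells minus that in wild-type cells. None of the 10 genes passed (0 of 10 with edgeR and 0 of 10 with DESeq2). Among all genes tested, 1.02% passed in either direction with edgeR, and 349 of 16013 with DESeq2. With shares this low, 0 of 10 does not set the TRIM genes apart. The largest values were 0.84 ± 0.29 for Trim12a (adjusted p = 0.29), 0.82 ± 0.25 for Trim12c (adjusted p = 0.215) and 0.43 ± 0.16 for Trim21 (adjusted p = 0.349). Trim25 had -0.22 ± 0.09 (adjusted p = 0.405). A rise that passed in knockout cells and not in wild-type cells, as for Trim12a, Trim12c and Trim34a, is therefore not shown to differ between them.

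The comparison of knockout cells with IFN against untreated wild-type cells asked which genes came level with the untreated wild-type state. Of the 10 genes, 8 were lower, with a median log2 fold change of -1.43; 15.1% of all genes tested were called lower and 9.94% higher. Trim21 reached 99.8% of the untreated wild-type level (adjusted p = 0.987), with an SE of 0.11 on the log2 scale. Trim26 stood at 90.8% (-0.14 ± 0.07, adjusted p = 0.201), which did not pass either. Trim56 was at 82.0% (-0.29 ± 0.07, adjusted p = 0.00685), a call lost with limma on TPM (adjusted p 0.128 with a pseudocount of 1). Trim12a was at 48.2% (-1.05 ± 0.20, adjusted p = 0.00222). Trim25 was at 37.7%, Trim14 at 36.3%, Trim34a at 23.1%, Trim12c at 18.7%, Trim30d at 13.3% and Trim30a at 11.2%, with adjusted p of at most 3.36e-06 in these 6 genes. All comparisons with a common group share its libraries.

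Summed over the 10 genes, the level was 218 ± 5.34 TPM in knockout cells with IFN and 187 ± 13.5 TPM in untreated knockout cells, against 628 ± 15 TPM in wild-type cells with IFN and 579 ± 24.9 TPM in untreated wild-type cells (SD, n = 3 each). The 5 cluster genes made up 21.5 ± 0.637% and 18.2 ± 2.45% of this sum in knockout cells with IFN and untreated, against 41.9 ± 0.898% and 44.8 ± 0.942% in wild-type cells with IFN and untreated. The order of the genes changed with the genotype. Trim25 was the most abundant gene in all 4 groups, with 58.4, 66.0, 160 and 154 TPM on average in knockout cells with IFN, untreated knockout cells, wild-type cells with IFN and untreated wild-type cells. Trim30a was the sixth and the fifth most abundant in knockout cells with IFN and untreated, and came next after Trim25 in both wild-type groups. Trim12c was the least abundant in both knockout groups and in wild-type cells with IFN, where its libraries overlapped those of Trim21, and Trim21 was the least abundant in untreated wild-type cells. Neighbours in the order whose libraries overlapped were Trim30a and Trim12a in knockout cells with IFN. In untreated knockout cells they were Trim26 and Trim56, and the run from Trim30d through Trim21 and Trim34a to Trim12a. In wild-type cells with IFN they were the run from Trim56 through Trim14 to Trim26, that from Trim34a through Trim12a to Trim30d, and Trim21 with Trim12c. In untreated wild-type cells the run from Trim56 through Trim30d, Trim34a and Trim26 to Trim12a overlapped from each gene to the next.

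The window of 250 kb on either side of the chromosome 7 cluster held 55 annotated genes, 28 of them olfactory receptor entries, none of which had enough counts to test. Besides the 5 cluster genes, 8 were tested, and 6 of these fell in untreated knockout cells compared with untreated wild-type cells: Trim5, Trim34b, Trim30b, Trim30c, Gm15133 and Gm16464. Among all genes tested, 10.6% were called lower in that comparison. Trim5 had 0.837, 1.09 and 0.641 TPM in untreated knockout cells, against 2.52, 3.02 and 3.0 TPM in untreated wild-type cells (log2 fold change -1.74 ± 0.18, adjusted p = 2.64e-05). Trim34b, which shares sequence with Trim34a, had 3, 8 and 22 counts in untreated knockout cells, against 44, 65 and 51 in untreated wild-type cells (-2.62 ± 0.44, adjusted p = 0.00126). Trim30c had 0, 2 and 2 counts in untreated knockout cells, against 10, 34 and 19 in untreated wild-type cells (adjusted p = 0.00481). Trim30b, with 0, 3 and 0 counts against 0, 25 and 13, passed narrowly (adjusted p = 0.04) and was lost in 13 alternatives, with adjusted p up to 0.125 when an untreated knockout library was left out and 0.154 without replicate 2 of the untreated wild-type cells. Gm15133 (-2.64, adjusted p = 0.0262) is an antisense gene whose span overlaps that of Trim12a. Gm16464 (-2.44, adjusted p = 0.000284) is a processed pseudogene inside the span of Trim30d, on the same strand. Neither shared exonic bases with that TRIM gene. Whether their reads came from the TRIM genes was not tested, so they may not count as separate from them. Trim6, at the other end of the cluster from the Trim30 genes, did not pass without IFN (-0.60, adjusted p = 0.0701) and was 1.36 ± 0.23 lower in knockout cells on the log2 scale with IFN (adjusted p = 0.00119), a call lost with limma on TPM (adjusted p 0.262 with a pseudocount of 1). The antisense gene Gm47248 overlapping Trim34a had -1.38 without IFN (adjusted p = 0.221) and was 2.29 lower in knockout cells on the log2 scale with IFN (adjusted p = 0.0417).

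**Figure D4:**
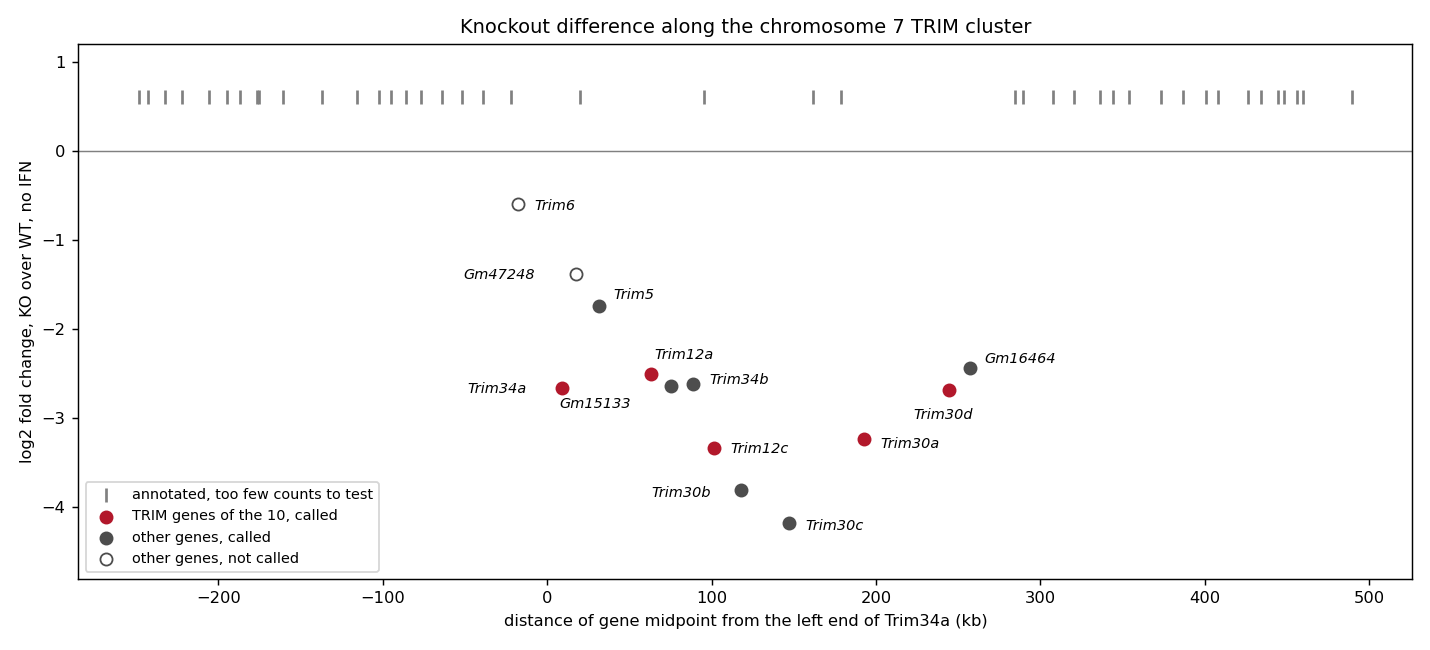
Log2 fold change of untreated knockout over untreated wild-type cells (y axis) against the distance of each gene's midpoint from the left end of Trim34a in kb (x axis), for the chromosome 7 cluster and 250 kb on either side; ticks at the top mark annotated genes with too few counts to test. The 5 TRIM genes of the cluster (red) lie between -3.33 and -2.50, Trim6 (open) at -0.60, and none of the 13 tested genes lies above 0.

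The rest of the TRIM family served as the comparison group. Of the 42 other TRIM genes tested, 8 fell and 4 rose in untreated knockout cells compared with untreated wild-type cells, with a median log2 fold change of -0.01 against -2.05 in the 10 genes. Those that fell included the cluster neighbours Trim5, Trim34b, Trim30b and Trim30c, already counted above, so this group is not separate from the cluster. With IFN, 8 fell and 3 rose in knockout cells compared with wild-type cells (median -0.04), and those that fell included the same neighbours and Trim6. Among all genes tested, 10.6% were called lower and 6.43% higher without IFN, and 10.6% and 5.11% with IFN. Pml, which builds nuclear bodies and is itself an interferon-stimulated TRIM gene, had 47.5, 59.7 and 58.0 TPM in untreated knockout cells, against 127, 140 and 131 TPM in untreated wild-type cells (log2 fold change -1.23 ± 0.09, adjusted p = 1.24e-06), and was 1.48 ± 0.09 lower with IFN (adjusted p = 3.47e-07). Trim71 fell by 1.0 ± 0.13 in untreated knockout cells (adjusted p = 0.000137). The 4 that rose without IFN were Trim7 (0.50), Trim37 (0.28), Trim3 (0.44) and Trim2 (0.59), with adjusted p of 0.0184 to 0.0459, and each of these calls was lost when at least 1 library was left out (Trim7 without replicate 2 of the untreated knockout cells, adjusted p = 0.0698). IFN raised 1 of the 42 and lowered 2 in knockout cells, and raised 1 (Trim30c, given above) and lowered 0 in wild-type cells. The gene that rose in knockout cells was Trim5 (1.21 ± 0.18, adjusted p = 0.000723), the neighbour and relative of Trim12a. Among all genes tested, IFN raised 5.47% and lowered 7.28% in knockout cells, and raised 4.66% and lowered 4.72% in wild-type cells. Between knockout cells with IFN and untreated wild-type cells, 8 of the 42 were lower and 0 higher, against 15.1% and 9.94% of all genes tested. The interaction called 0 of the 42, against 1.02% of all genes tested.

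Genes whose products work with these TRIM proteins were counted on a list of 17. In untreated knockout cells, 6 fell and 2 rose compared with untreated wild-type cells. With IFN, 6 fell and 1 rose. Among all genes tested, 10.6% were called lower and 6.43% higher without IFN, and 10.6% and 5.11% with IFN. Isg15, the ubiquitin-like protein that TRIM25 can attach, had 107, 127 and 107 TPM in untreated knockout cells, against 1365, 674 and 1327 TPM in untreated wild-type cells, where replicate 2 was the low library (log2 fold change -3.32 ± 0.23, adjusted p = 7.18e-07). Ifih1, which encodes the RNA sensor MDA5, fell by 2.45 ± 0.10 (adjusted p = 4.91e-09) and Ddx58, which encodes RIG-I, by 1.61 ± 0.18 (adjusted p = 4.60e-05). Zc3hav1, the zinc-finger antiviral protein gene with which TRIM25 acts, fell by 1.16 ± 0.10 (adjusted p = 3.73e-06). Map3k7, the TAK1 kinase gene of the TAB2 and TAB3 complex, rose by 0.79 ± 0.12 (adjusted p = 0.000499). Irf3, the other gene that rose (0.28 ± 0.08, adjusted p = 0.0401), lost its call in 14 alternatives. Tmem173, which encodes STING, did not pass without IFN (-0.26 ± 0.11, adjusted p = 0.137). IFN raised 2 and lowered 1 of the 17 in knockout cells and called 0 in wild-type cells. Among all genes tested, IFN raised 5.47% and lowered 7.28% in knockout cells, and raised 4.66% and lowered 4.72% in wild-type cells. Knockout cells with IFN had 7 of the 17 lower and 2 higher than untreated wild-type cells, against 15.1% and 9.94% of all genes tested. The interaction called 1 of the 17, against 1.02% of all genes tested. That gene was Ifih1 (0.77 ± 0.14, adjusted p = 0.017), and its call was lost in 6 alternatives.

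Among 15 genes of interferon production, reception and signalling, 11 fell and 1 rose in untreated knockout cells compared with untreated wild-type cells. The gene that rose was Irf3, already counted in the list of 17 and given there with its lost calls. The shares of all genes tested called lower and higher in knockout cells were 10.6% and 6.43% without IFN, and 10.6% and 5.11% with IFN. Ifnb1, which encodes interferon beta, had 0, 0 and 1 counts in untreated knockout cells, against 79, 44 and 56 counts in untreated wild-type cells. With IFN it had 1, 0 and 0 counts in knockout cells, against 66, 67 and 56 in wild-type cells. Irf7 (-3.31 ± 0.10, adjusted p = 3.37e-10), Stat2 (-2.27 ± 0.07, adjusted p = 2.85e-10) and Irf9 (-0.94 ± 0.08, adjusted p = 2.07e-06), transcription factor genes of the type I response, fell in untreated knockout cells. With IFN, 7 of the 15 were lower and 0 higher in knockout cells, among them Irf7 (-1.61 ± 0.09) and Stat2 (-1.18 ± 0.06).

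IFN raised 7 of the 15 in knockout cells, among them Irf1 (3.20 ± 0.08), Irf8 (4.65 ± 0.14) and Stat2 (1.46 ± 0.06). In wild-type cells 3 rose, Irf1 (2.18 ± 0.08), Irf8 (3.72 ± 0.14) and Stat2 (0.36 ± 0.06), and Irf7 fell by 0.43 ± 0.09 (adjusted p = 0.0125), a call lost when replicate 1 (adjusted p = 0.051) or 2 (adjusted p = 0.0552) of the wild-type cells with IFN was left out. With only the groups compared in the fit, Irf7 (adjusted p = 0.064) and Stat2 (adjusted p = 0.0532) did not pass. The interaction called 5 of the 15, against 1.02% of all genes tested. The 5 included Irf7 at 1.70 ± 0.13 (adjusted p = 1.36e-05), Stat2 at 1.09 ± 0.09 (adjusted p = 2.13e-05) and Irf1 at 1.02 ± 0.10 (adjusted p = 0.00015). Knockout cells with IFN had 5 of the 15 lower and 4 higher than untreated wild-type cells, against 15.1% and 9.94% of all genes tested. The shares of all genes tested that IFN raised and lowered were 5.47% and 7.28% in knockout cells, and 4.66% and 4.72% in wild-type cells.

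The genes whose levels followed each TRIM gene most closely over the 12 libraries were found by Pearson correlation of log2 CPM (library-scaled counts), as a description, since the 12 points fall in 4 groups and share libraries. Trim30a went most closely with Mx2 and Mx1 (0.996 each), antiviral GTPase genes. Trim34a went with Ifit1, an interferon-induced tetratricopeptide gene, and the translation initiation gene Eif4g1 (0.997 each). Trim12c went with Ifit3 (0.996), and Trim25 with Cmpk2 (0.995). Trim12a went with the receptor chain gene Ifnar2 (0.987), followed by Dtx3l and Parp9 (0.98 each). Trim14 went with Ms4a4d (0.992), Trim30d with Gm44122 (0.996), Trim21 with Gm18853 (0.989), Trim26 with Ubash3b (0.987) and Trim56 with Bmp2 (0.987). Between the 10 genes themselves the correlation was highest for Trim30a with Trim30d (0.993) and Trim34a with Trim12c (0.991), and lowest for Trim30d with Trim21 (0.633). Trim21 went with Trim26 at 0.916 and with Trim56 at 0.926, and Trim26 with Trim56 at 0.974. Trim12a also went with Trim21 (0.916), Trim26 (0.915) and Trim56 (0.937).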

How the data were processed

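Poly-A RNA of 12 samples was sequenced as 150 bp paired reads. Per the submitters' processing notes, CASAVA, Trimmomatic 0.36, FastQC 0.11.2 and HISAT2 2.1.0 were used with GRCm38 (the sources used here do not give the counting program, strand setting and annotation). The authors deposited raw counts per gene and TPM (summing to 999728.7 to 999898.1 per library), with 0 columns of other samples. Of 51826 identifiers, 51633 were found in GENCODE M21.

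The counts were tested with edgeR 4.0.16 in R 4.3.3: filterByExpr (minimum count 10, minimum total 15; 16676 genes kept), TMM scaling, a robust quasi-likelihood fit with 1 mean per group over all 12 libraries (common biological coefficient of variation 0.1685), 6 contrasts, and Benjamini-Hochberg adjustment over all genes in each, with a threshold of 0.05. The fit was tested on simulated data. Standard errors, which are approximate, divide the size of a log2 fold change by the root of its F statistic. Levels are the deposited TPM. Adjusted p values are from edgeR unless another tool is named.

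The TRIM genes and gene lists were chosen with earlier results of these data known. All 10 TRIM genes are named; of the lists, up to 4 genes per direction and contrast with the smallest adjusted p, plus the genes within and next to the cluster; not every gene that this rule names is reported here. Others were added after their values were seen: Irf9, Tmem173, and Trim30c, Trim30b and Trim6 without IFN. Nearest genes had a mean of at least 2 CPM (offset 0.5). Alternatives were DESeq2 size factors, library totals, DESeq2 1.42.0, no filter, only the groups compared, a replicate block, groups from the other labels, limma 3.58.1 on log2(TPM + 1) or log2(TPM + 0.1) (mean TPM at least 0.1), each library left out, and 2 libraries left out. Coding sequences were aligned with Biopython 1.88; protein sequences were not used here.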

Additional observations from a re-analysis of the deposited data

How the results depend on the processing

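Of 1250 fold changes of the 10 genes recomputed under alternatives with the groups by title, 1214 kept their direction and side of the threshold, 14 lost and 7 gained a call, and 15 that were not called changed sign. The calls lost were those of Trim26 and Trim56 given above, Trim26 for IFN in knockout cells also with library totals (adjusted p = 0.055), no filter (0.0728), the replicate block (0.0517) and limma on TPM (0.246 and 0.237). The count of genes called for IFN in wild-type cells, 3, was 5 with DESeq2's Wald test and 3 to 5 when 1 library was left out, the 5 coming without replicate 1 of the untreated knockout cells. In the other 5 contrasts the counts of the 10 genes called stayed within 1.5 times with groups by title; the cause of the changes was not tested.

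With groups from the characteristics, 2 of the groups change places and so do the comparisons. Smarcd1 in knockout over wild-type cells was at 0.18 untreated and 0.22 with IFN on the log2 scale. By title these were -0.82 and -0.79. Gbp2 with IFN over untreated was at -3.62 in wild-type cells and 0.29 in knockout cells. By title these were 2.87 and 6.77. The tests by title called Smarcd1 lower in knockout cells and Gbp2 higher with IFN in each comparison. By the characteristics, neither was called so in any. The knockout comparison then called 3 of the 10 genes higher, with log2 values of 0.31 (Trim34a), 0.60 (Trim12a), 0.09 (Trim12c), 0.69 (Trim21), 0.08 (Trim25), 0.42 (Trim26) and 0.50 (Trim56) of opposite sign to those by title. With IFN it called 6 higher, with 0.07 (Trim30a), 0.54 (Trim34a), 1.45 (Trim12a), 0.92 (Trim12c), 0.14 (Trim14), 1.13 (Trim21), 0.28 (Trim26) and 0.34 (Trim56). For IFN in knockout cells all 10 were lower, with -2.97 (Trim30a), -2.42 (Trim34a), -1.66 (Trim12a), -2.51 (Trim12c), -1.41 (Trim14), -0.70 (Trim21), -0.56 (Trim26) and -0.79 (Trim56) reversed. For IFN in wild-type cells all 10 were lower, with -2.66 (Trim34a), -2.50 (Trim12a), -3.33 (Trim12c), -1.13 (Trim21), -1.27 (Trim25), -0.42 (Trim26) and -0.63 (Trim56) reversed.

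Over all genes, the knockout comparison called 2835 genes and 1494 with only the groups compared. Library totals gave 1406 higher and 1546 lower in place of 1073 and 1762. With IFN the knockout comparison called 2622, 1726 without replicate 1 of the knockout cells with IFN, and 4457 without the 2 libraries left out together. IFN in knockout cells called 2127, and 1349 to 1361 without a knockout library with IFN. IFN in wild-type cells called 1564, against 648 with only the groups compared, 883 without replicate 2 of the wild-type cells with IFN, 1032 without replicate 3 of the untreated wild-type cells and 2717 without the 2 libraries. The interaction called 170, against 349 with DESeq2, 107 with limma on log2(TPM + 1) and 265 without the 2 libraries.

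Deviations of same-numbered libraries from their group means correlated at -0.1619 to 0.1135 over 18 pairs, against -0.1704 to 0.1938 for other pairs. The labels do not say whether a number marks a shared day or batch. With 3 libraries a group, these correlations cannot exclude it. With the replicate block the knockout comparison called 2522 genes in place of 2835, all 10 TRIM genes among them, and IFN in knockout cells called 5 of the 10 in place of 6. The lowest count of any of the 10 genes in a library was 117, for Trim12a in replicate 1 of the untreated knockout cells, and 3 libraries a group limit the precision.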
